A study of Mus musculus with 6 samples.

Results

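Endothelial cells line blood and lymphatic vessels, and the 35 genes described here are known for their expression in these cells. They were chosen by name, and all 35 were found by gene symbol, with 1 probe set each, among the 20239 genes tested. They were measured in bronchial smooth muscle cells (BSMCs), a population from which cells with CD31 on their surface, the protein encoded by the endothelial gene Pecam1, had been sorted away. The values therefore describe endothelial transcripts that were measurable in RNA of sorted smooth muscle cells, and how they compared between asthmatic and control mice.

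BSMCs came from the lungs of adult αSMA-hrGFP;NG2-DsRed mice on a C57BL/6J background. In these animals a rat α-smooth muscle actin promoter drives the green protein hrGFP, the mouse NG2 (Cspg4) promoter drives the red protein DsRed, and cells without CD45 and CD31 that were green but not red were collected as BSMCs. The asthma group (3 arrays) came from mice sensitized with 50 µg of ovalbumin (OVA) on days 0 and 7, and the control group (3 arrays) from mice that had received PBS at those times. All mice inhaled nebulized OVA on 5 days from day 14 to day 18, and cells were taken on day 19. According to the methods, each RNA was pooled from several mice, whereas the sample labels name single animals and microdissected tissue and state OVA sensitization for every sample; the grouping used here rests on the titles and the methods. Nothing shows that the 3 samples of a group were prepared on separate occasions, so p-values measure only the spread between these samples.

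Values are log2 levels, so a difference of 1 is a doubling, and levels of different probe sets are not set against each other. The medians of the 20239 genes were 6.76 to 6.82 on the 6 arrays, with upper quartiles of 7.96 on asthma 2 and 8.25 to 8.30 on the others. Asthma 2 stood apart: on the first principal component, which held 61.2% of the variance, it was at 67.5, against -23.5 to -9.29 for the other arrays, and its mean correlation with them was 0.959, against 0.980 to 0.986. The SD of the levels was 1.72 on asthma 2, against 1.98 to 2.04 on the other arrays. The methods left out 1 asthma array without naming it, giving technical issues with the sample and this criterion. Asthma 2 was taken to be that array. Asthma 1 and asthma 3 against the 3 control arrays is therefore the comparison given first, and all 6 arrays are given beside it. The smooth muscle actin gene Acta2, which drives the reporter, was at 12.44, 12.09 and 12.52 on asthma 1, 2 and 3, against 12.39, 11.87 and 12.13 on control 1, 2 and 3. Levels below follow the same order of arrays 1, 2 and 3 within each group.

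Endothelial identity rests on several cooperating systems. Adhesion proteins such as VE-cadherin and claudins hold the cells together, receptors for vascular endothelial growth factor (VEGF) and angiopoietins control growth and vessel stability, and transcription factors of the ETS and SOX families switch on many of the genes that encode them. In humans the bronchial wall has its own microvessels next to the muscle layer, and these enlarge and leak in allergic airway inflammation. Vessels of the mouse airway wall were not examined here.

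None of the 35 genes passed the study's false discovery rate (FDR) of 0.25 between asthma 1 and 3 and the control arrays (limma), a threshold passed by 0.0395% of all genes tested. At an unadjusted p under 0.01 there was 1 gene, Aqp1, against 1.97% of the genes tested. Under 0.05 there was 1 lower gene, again Aqp1, against 4.78% of all genes, and 1 higher gene, Car4, against 4.53%. The differences nevertheless leaned one way: 31 of the 35 log2 fold changes were negative, against 56.3% of all genes, and the 4 positive ones were those of Esam, Ecscr, Erg and Car4. Their median was -0.32, against -0.02 over all genes, and they ran from -0.65 for Ptprb to 0.97 for Car4.

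**Figure D1:**
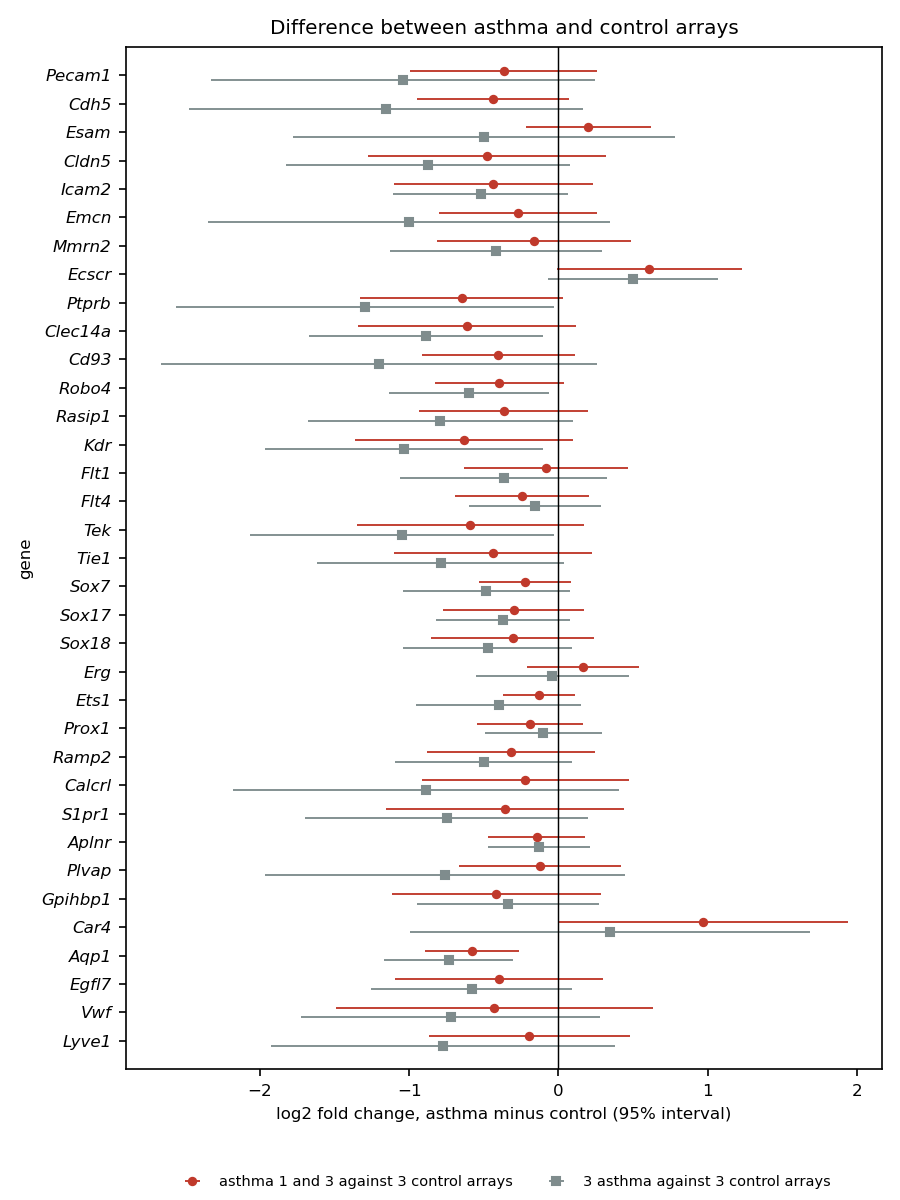
Log2 fold change of each endothelial gene, asthma minus control, on the x axis, with 95% intervals from limma. Red points compare asthma 1 and 3 with the 3 control arrays and grey squares all 3 asthma arrays with the 3 control arrays. In the first comparison the interval lay below 0 for Aqp1 and above 0 for Car4, and 31 of 35 points lay left of 0.

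The array by array values show what this median rests on. Control 2 had the highest level of the 3 control arrays for 33 of the 35 genes, all but Prox1 and Aplnr, against 28.5% of all genes tested. It exceeded the mean of control 1 and 3 by a median of 0.68, against -0.02 over all genes, from 0.06 for Aplnr to 1.42 for Vwf. Set against control 1 and 3 alone, asthma 1 had a median difference of -0.08 and asthma 3 of -0.11 over the 35 genes, and asthma 3 minus asthma 1 had a median of -0.01. Asthma 1, asthma 3, control 1 and control 3 thus lay close together for most of the genes, and control 2 lay above them. Control 2 was the highest of all 6 arrays for 29 of the 35 genes, against 12.3% of all genes. Without control 2 the median log2 fold change was -0.10, and 25 genes were negative, against 57.3% of all genes. Under an unadjusted p of 0.05 there were then 4 lower genes, Ptprb, Clec14a, Kdr and Aqp1, against 4.25% of all genes, and 2 higher ones, Ecscr and Car4, against 3.36%. Of these, Car4 and Aqp1 were under 0.01, against 1.5%, and 0 genes passed an FDR of 0.25 among either the 35 or all genes.

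Asthma 2 lay at the other end. It had the lowest level of all 6 arrays for 30 of the 35 genes, against 33.5% of all genes, the exceptions being Ecscr, Flt4, Prox1, Aplnr and Gpihbp1. It had the highest level for 0 of the 35, against 42.6% of all genes. Its difference from the control mean had a median of -1.05, from -2.80 for Cd93 to 0.27 for Ecscr, against 0.05 over all genes. On that array genes of high level tended to lie lower, with a slope of -0.17 per log2 unit of level over all genes. After this trend was taken off, asthma 2 minus the other 5 arrays had a median of -0.89 over the 35 genes, against 0.02 over all genes. This step takes off a straight line on level only, and any other technical effect stays in the values. With all 6 arrays the median log2 fold change was -0.60, 33 of the 35 genes were negative (45% of all genes), 6 were lower at an unadjusted p under 0.05 (3.1% of all genes), and 0 were higher (1.44%). The 6 were Ptprb, Clec14a, Robo4, Kdr, Tek and Aqp1, of which Aqp1 was under 0.01 (0.86% of all genes), and 0 passed an FDR of 0.25 (0.00494%). Without control 2 as well, that count of 6 became 1, Aqp1, against 1.52% of all genes. The 3 asthma arrays lay below every control array for 12 of the 35 genes, against 7.83% of all genes, and above every control array for 0, against 4.16%. For asthma 1 and 3 alone the count below every control was 13, against 16.8% of all genes. In bulk RNA, fewer endothelial cells in a sample and less of these transcripts per cell cannot be told apart. The part of technical issues in the low values of asthma 2 was not tested.

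**Figure D2:**
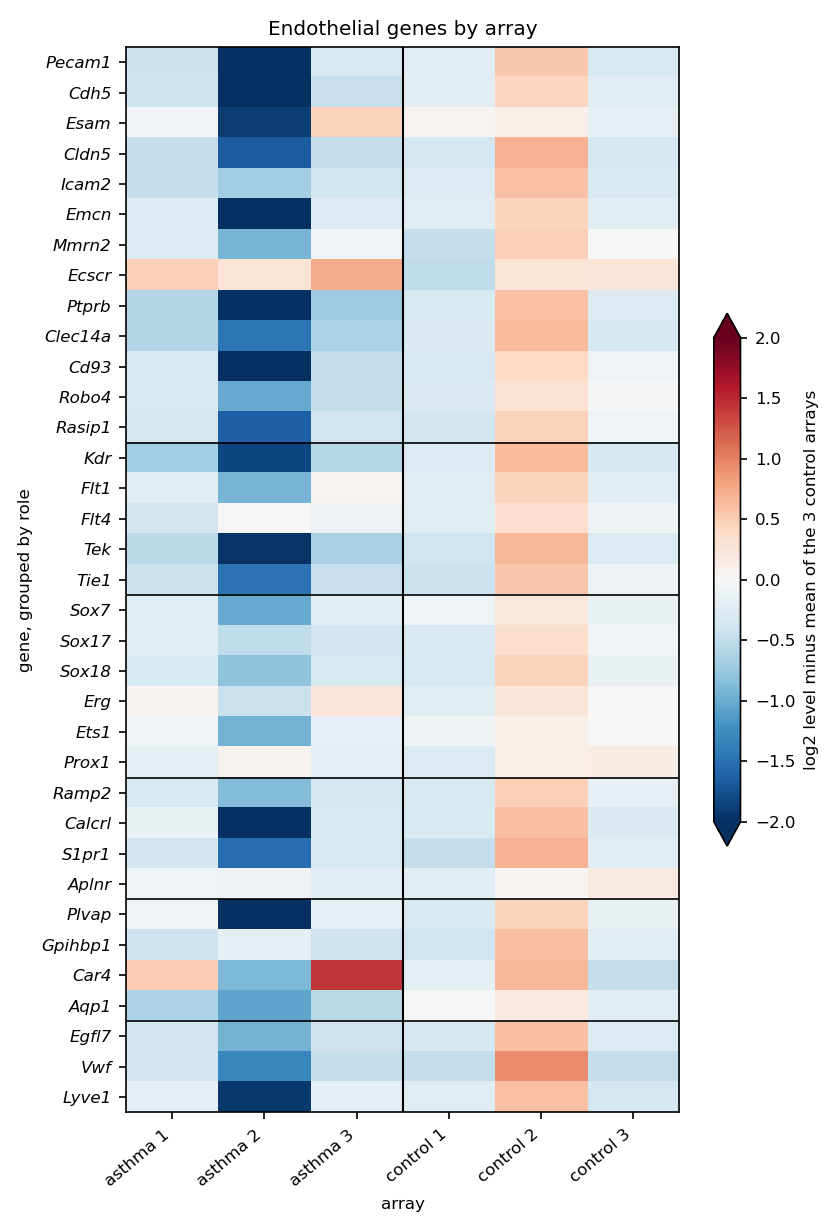
Level of each endothelial gene on each array minus its mean over the 3 control arrays, in log2 units, with asthma arrays left and control arrays right. Rows are genes grouped by role and colours end at 2 units in either direction. Asthma 2 is the lowest array for 30 of 35 genes, and control 2 is the highest control array for 33 of 35.

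The gene of the sorting gate, Pecam1, encodes the adhesion protein CD31 of endothelial cells, platelets and some leukocytes. Its level was 8.48, 6.52 and 8.60 on the asthma arrays, against 8.69, 9.44 and 8.59 on the control arrays. Asthma 3 lay within the control range, asthma 1 just below it, and asthma 2 far below both. The log2 fold change was -0.37 (standard error 0.26; limma, FDR = 0.663), with a 95% interval from -0.99 to 0.26. Over all 6 arrays it was -1.04 (limma, FDR = 0.892).

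Of the 13 genes of junctions and the endothelial surface, 11 had negative log2 fold changes and 0 passed an unadjusted p of 0.05; the group's median was -0.40, and -0.14 without control 2. Cdh5, which encodes VE-cadherin, the adhesion molecule of endothelial adherens junctions, was at 9.85, 7.68 and 9.80 in asthma, against 10.04, 10.69 and 10.05 in control. The groups did not overlap, although asthma 1 and 3 lay only just under control 1 and 3. Its log2 fold change was -0.44 (standard error 0.21; limma, FDR = 0.566). Cldn5, the main claudin of endothelial tight junctions, was at 8.91, 7.73 and 8.91 in asthma, against 9.04, 10.09 and 9.03 in control. Here control 1 and 3 were close above asthma 1 and 3, and control 2 was 1.05 units above the mean of the other controls.

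Ptprb encodes VE-PTP, a phosphatase that acts on VE-cadherin and on the angiopoietin receptor. It had the most negative log2 fold change of the 35 genes, with levels of 9.01, 7.00 and 8.88 in asthma, against 9.28, 10.18 and 9.32 in control. The 3 asthma arrays lay below every control array, and the log2 fold change was -0.65 (standard error 0.28; limma, FDR = 0.543). It was -0.35 without control 2 (limma, FDR = 0.646). The lectin-like surface protein gene Clec14a was at 6.82, 5.96 and 6.76 in asthma, against 7.11, 8.04 and 7.06 in control, again without overlap. Robo4, a guidance receptor that stabilizes vessels, was at 7.10, 6.41 and 6.94 in asthma, against 7.13, 7.71 and 7.40 in control, and asthma 1 lay only just under the lowest control. With asthma 2 included, Ptprb had a log2 fold change of -1.30, Clec14a of -0.89 and Robo4 of -0.60 (limma, FDR = 0.892 for each).

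Of the other surface genes, some overlapped between the groups and others did not. Icam2, a ligand of leukocyte integrins that platelets also carry, and Emcn, which encodes the sialomucin endomucin of veins and capillaries, had log2 fold changes of -0.44 and -0.27, and their 3 asthma arrays lay below every control array. Cd93, a receptor of endothelial and myeloid cells that binds the matrix protein encoded by Mmrn2, was at 9.25, 6.75 and 9.06 in asthma, against 9.23, 9.95 and 9.49 in control. Asthma 1 lay inside the control range, and the difference of asthma 2 from the control mean, -2.80, was the furthest from 0 of the 35 genes. Mmrn2 itself had a log2 fold change of -0.16, which became 0.08 without control 2, and control 1 lay below asthma 1 and 3. Rasip1, an effector of Rap1 and Ras signaling needed for vessel lumens, had one of -0.37, with asthma 1 inside the control range.

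Esam and Ecscr differed from the rest of this group. Esam, an adhesion molecule of endothelial junctions and platelets, was at 9.03, 7.19 and 9.55 in asthma, against 9.14, 9.20 and 8.93 in control. The control arrays were close together for this gene, and its log2 fold change of 0.20 became -0.50 with asthma 2 included. Ecscr, a surface protein that regulates endothelial migration, was at 8.52, 8.32 and 8.79 in asthma, against 7.53, 8.32 and 8.28 in control. Asthma 1 and 3 lay above every control array, the only gene of the 35 to do so, against 11.9% of all genes; control 1 was the low one. Its log2 fold change was 0.61 (standard error 0.25; limma, FDR = 0.535), and 0.75 without control 2 (limma, FDR = 0.646). It was 0.35 without control 1 (limma, FDR = 0.562) and 0.50 over all 6 arrays (limma, FDR = 0.892).

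All 5 receptors of the VEGF and angiopoietin systems had negative log2 fold changes and 0 passed an unadjusted p of 0.05; their median was -0.44, and -0.17 without control 2. Kdr encodes VEGF receptor 2, the main signaling receptor for VEGF-A. It was at 7.21, 6.06 and 7.32 in asthma, against 7.62, 8.53 and 7.54 in control. The groups did not overlap, and the log2 fold change was -0.63 (standard error 0.30; limma, FDR = 0.565), or -0.31 without control 2 (limma, FDR = 0.646). Tek, the angiopoietin receptor Tie2, was at 8.69, 7.25 and 8.56 in asthma, against 8.81, 9.88 and 8.95 in control. There too the 3 asthma arrays lay lowest, and the log2 fold change was -0.59 (standard error 0.31; limma, FDR = 0.585), or -0.26 without control 2 (limma, FDR = 0.665). Its relative Tie1, which modulates Tek signaling, had a log2 fold change of -0.44.

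Flt1, the VEGF receptor that also acts as a decoy for VEGF-A and binds placental growth factor, did not share this order. It was at 8.09, 7.38 and 8.37 in asthma, against 8.08, 8.75 and 8.10 in control, so that asthma 1 and asthma 3 stood inside the control range. Its log2 fold change of -0.08 became 0.14 without control 2. Flt4, the receptor for VEGF-C of lymphatic endothelium, lay between 6.03 and 6.40 in asthma and between 6.15 and 6.72 in control, with a log2 fold change of -0.24.

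The sequences just upstream of 4 genes are shown because these genes were among the 6 lower at an unadjusted p under 0.05 over all 6 arrays, and because ETS factors are known to act on endothelial promoters. They are the 250 bases before the start of the gene in RefSeq (GRCm38.p6), 5′ to 3′ on the strand of the gene. Capitals mark the ETS letters CAGGAA, on either strand, and the SOX letters ACAAAG or ACAATG, on either strand; the marked stretches do not overlap.
Clec14a (chr12:58269259-58269508, minus strand): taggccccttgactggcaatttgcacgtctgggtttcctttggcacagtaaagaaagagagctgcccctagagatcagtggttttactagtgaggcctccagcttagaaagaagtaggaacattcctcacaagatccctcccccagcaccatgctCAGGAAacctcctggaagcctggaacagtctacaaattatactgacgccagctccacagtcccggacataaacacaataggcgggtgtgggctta
Robo4 (chr9:37401722-37401971, plus strand): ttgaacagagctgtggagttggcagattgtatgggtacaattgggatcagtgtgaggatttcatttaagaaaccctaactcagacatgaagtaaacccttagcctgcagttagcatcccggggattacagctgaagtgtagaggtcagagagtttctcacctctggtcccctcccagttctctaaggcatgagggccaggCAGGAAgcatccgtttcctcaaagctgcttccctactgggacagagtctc
Kdr (chr5:75978456-75978705, minus strand): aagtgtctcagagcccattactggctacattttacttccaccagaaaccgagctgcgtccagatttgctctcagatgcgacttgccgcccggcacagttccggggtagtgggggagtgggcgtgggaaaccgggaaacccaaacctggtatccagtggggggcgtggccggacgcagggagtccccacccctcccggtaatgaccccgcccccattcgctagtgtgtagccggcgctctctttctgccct
Tek (chr4:94739039-94739288, plus strand): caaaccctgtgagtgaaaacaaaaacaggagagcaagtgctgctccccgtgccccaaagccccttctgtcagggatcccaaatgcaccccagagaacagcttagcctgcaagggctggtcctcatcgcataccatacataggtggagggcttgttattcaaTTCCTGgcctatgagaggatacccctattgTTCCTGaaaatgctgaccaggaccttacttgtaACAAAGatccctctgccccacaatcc
Tek held 2 ETS matches, with their first letters 89 and 59 bases before the start, and 1 SOX match 26 bases before it. Clec14a held 1 ETS match at 95 bases and Robo4 1 at 50 bases, and Kdr held neither set of letters. RefSeq windows were at hand for 16 of the 35 genes, as 21 windows. The ETS letters were found in 10 of the 21 windows (47.6%), of 9 genes (Emcn, Clec14a, Robo4, Rasip1, Tek, Tie1, Erg, Calcrl and Egfl7), and in 25.7% of the 32851 windows of all genes. The SOX letters were in 23.8% of the windows of these genes and 25.2% of all windows, the GATA letters AGATAA, on either strand, in 4.76% and 9.99%, and the TATA letters TATAAA, on the strand of the gene, in 4.76% and 7.59%. A match describes letters only and was not tested for binding. CAGGAA was the only ETS sequence searched, so a window without it can hold other forms of the ETS site.

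Among the transcription factors, 5 of 6 had negative log2 fold changes, 0 passed an unadjusted p of 0.05, and the median was -0.21. Sox7, Sox17 and Sox18, related SOX factors of vessel development, had log2 fold changes of -0.22, -0.30 and -0.31. Erg, an ETS factor that maintains endothelial identity, was at 7.86, 7.34 and 8.05 in asthma, against 7.56, 8.03 and 7.79 in control. Asthma 3 was the highest of the 6 arrays and asthma 2 the lowest, and the log2 fold change of 0.16 became -0.04 over all 6. Ets1, an ETS factor that lymphocytes also express, had a log2 fold change of -0.13. Prox1, the factor that specifies lymphatic endothelium, lay between 5.18 and 5.45 in asthma and between 5.10 and 5.52 in control; it was the 1 gene of the 35 with a median level under the 25th percentile of all genes.

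All 4 genes of the G protein-coupled receptors and their partner had negative log2 fold changes, with a median of -0.27, or -0.05 without control 2, and 0 passed an unadjusted p of 0.05. Calcrl and its partner Ramp2 form the receptor for adrenomedullin, a peptide that tightens the endothelial barrier, and had log2 fold changes of -0.22 and -0.32. S1pr1, a receptor for sphingosine 1-phosphate that endothelial cells share with lymphocytes, was at 7.88, 6.74 and 7.95 in asthma, against 7.79, 8.96 and 8.07 in control. Its log2 fold change of -0.36 became -0.01 without control 2, which stood 1.03 units above the mean of the other controls. Aplnr, the apelin receptor, whose lowest array was control 1 and whose highest was control 3, ran from 7.44 to 7.57 in asthma and from 7.43 to 7.83 in control.

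Aqp1 encodes a water channel of capillary endothelium that red cells and other cells also carry. It was at 10.34, 9.90 and 10.41 in asthma, against 10.97, 11.14 and 10.75 in control. Every asthma array lay below every control array, as for 7.83% of all genes, and here asthma 1 and 3 lay clearly under control 1 and 3 as well. The log2 fold change was -0.58 (standard error 0.13; limma, unadjusted p = 0.00409, FDR = 0.48), a fold of 0.671, with a 95% interval from -0.89 to -0.26. It was -0.48 without control 2 (limma, FDR = 0.646) and -0.74 over all 6 arrays (limma, FDR = 0.892). Hbb-bs, the adult beta globin gene of red cells, was at 7.82, 2.75 and 3.69 in asthma, against 8.35, 9.19 and 5.99 in control. Its log2 fold change was -2.09, with a standard error of 1.38 (limma, FDR = 0.646), and asthma 1 and 3 lay far apart. Hbb-bs and Aqp1 were both highest on control 2 and lowest on asthma 2. Without asthma 2, 0 of the 4 measured erythroid genes had a positive log2 fold change. Over all 6 arrays 2 did, Klf1 and Slc4a1, which were highest on asthma 2, at 6.41 and 6.65, as were 42.6% of all genes. The part of red cells in the Aqp1 values was not tested.

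Car4 encodes a membrane-anchored carbonic anhydrase of lung capillaries, which alveolar macrophages can also express. It was at 9.10, 7.68 and 10.01 in asthma, against 8.39, 9.25 and 8.11 in control. Asthma 3 was the highest array, asthma 1 lay under control 2, and asthma 2 lay below every control, so the groups overlapped. The log2 fold change was 0.97 (standard error 0.40; limma, unadjusted p = 0.0496, FDR = 0.534), a fold of 1.96. It was 1.30 without control 2 (limma, FDR = 0.641), 0.52 without asthma 3 (limma, FDR = 0.997) and 0.35 over all 6 arrays (limma, FDR = 0.894). Among 14 macrophage markers, 4 were higher and 1 lower at an unadjusted p under 0.05, against 4.53% and 4.78% of all genes. Chil3, which alveolar macrophages express, was at 9.20, 6.53 and 9.39 in asthma, against 6.45, 8.26 and 8.13 in control, while Marco, another of their genes, had a log2 fold change of -0.12. The part of macrophages in the Car4 values was not tested.

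The windows before Aqp1 and Car4, the 2 genes past an unadjusted p of 0.05, are shown for comparison with those of the receptors. They have the same length and source, and neither holds the ETS or the SOX letters, so no base is in capitals.
Aqp1 (chr6:55336049-55336298, plus strand): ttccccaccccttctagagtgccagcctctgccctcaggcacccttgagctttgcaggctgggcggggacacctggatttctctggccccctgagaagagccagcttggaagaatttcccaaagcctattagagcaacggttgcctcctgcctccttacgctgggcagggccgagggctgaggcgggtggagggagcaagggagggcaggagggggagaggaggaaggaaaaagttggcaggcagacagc
Car4 (chr11:84957504-84957753, plus strand): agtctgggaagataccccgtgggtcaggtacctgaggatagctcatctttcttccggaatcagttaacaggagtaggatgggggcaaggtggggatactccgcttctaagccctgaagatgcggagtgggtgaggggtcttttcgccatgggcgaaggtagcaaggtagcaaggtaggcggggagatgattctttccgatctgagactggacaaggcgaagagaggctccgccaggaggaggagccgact
This says only that these letters are not in these windows, and other forms of the ETS site were not searched.

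**Figure D3:**
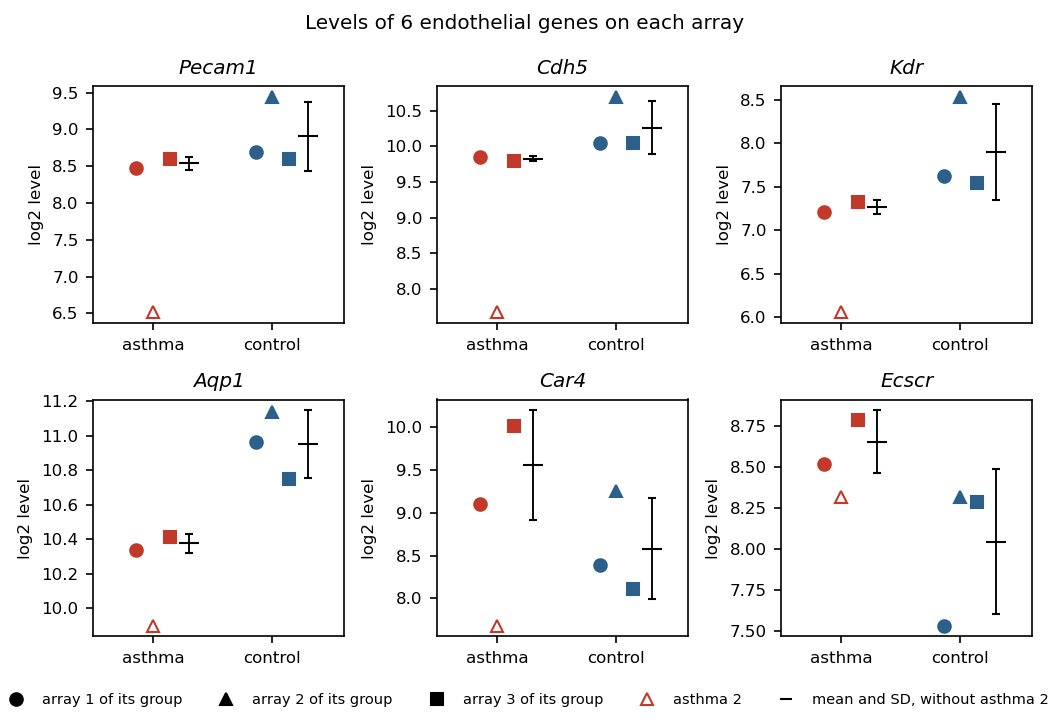
Log2 levels of Pecam1, Cdh5, Kdr, Aqp1, Car4 and Ecscr on each array, asthma left and control right. Circles, triangles and squares are arrays 1, 2 and 3 of a group, the open triangle is asthma 2, and bars are the mean and SD without asthma 2. All asthma arrays lie below the control arrays for Cdh5, Kdr and Aqp1, and asthma 1 and 3 lie above them for Ecscr.

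The other capillary genes had smaller differences. Plvap, the protein of the diaphragms that span endothelial pores, had a log2 fold change of -0.12, which became 0.10 without control 2. Gpihbp1, which anchors lipoprotein lipase in capillaries, was at 7.35, 7.58 and 7.34 in asthma, against 7.37, 8.37 and 7.55 in control, with a log2 fold change of -0.42. It was 1 of the 5 genes for which asthma 2 was not the lowest array.

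Of the secreted and lymphatic genes, Vwf, the clotting protein stored by endothelial cells and platelets, had the widest spread of the 35 genes over the control arrays. It was at 8.28, 7.36 and 8.19 in asthma, against 8.18, 9.61 and 8.19 in control. Control 2 lay 1.42 units above the mean of the other controls, which were close to asthma 1 and 3. The log2 fold change of -0.43 (limma, FDR = 0.762) became 0.05 without control 2. Lyve1, a hyaluronan receptor of lymphatic endothelium and some macrophages, was at 9.50, 7.77 and 9.50 in asthma, against 9.46, 10.28 and 9.34 in control. Its log2 fold change of -0.19 became 0.10 without control 2. Egfl7, a secreted matrix protein that guides vessel growth, had a log2 fold change of -0.40.

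Because most of the 35 genes shared their highest and lowest arrays, each was also set against the mean of the other 34 on the same array. This takes off the mean only. A shared shift whose size differs between genes stays, and centring puts some genes up and others down. On this scale, 4 genes lay higher on all 3 asthma arrays than on every control array, and 6 lay lower. Because the scale is centred on these genes, whose mean was lower in asthma, the shares of all genes that did so, 19.2% above and 0.109% below, are not a like comparison. Ecscr was at 0.43, 1.25 and 0.67 in asthma, against -0.58, -0.53 and 0.08 in control. Car4 was at 1.03, 0.60 and 1.92 in asthma, against 0.31, 0.43 and -0.10 in control. Before this step, Car4 on asthma 2 was at 7.68, below every control array, and Ecscr on asthma 2 was at 8.32, as on control 2. Erg and Flt1 were the other genes of the higher kind. The 6 lower genes were Cdh5, Cldn5, Ptprb, Kdr, Tek and Tie1, which encode junction proteins, a phosphatase and receptors. Between asthma 1 and the nearest control there was hardly any gap for Flt1 and Tie1, and little for Cldn5. Kdr was at -0.91, -1.07 and -0.84 in asthma, against -0.49, -0.31 and -0.69 in control. Ptprb was at 0.94, -0.10 and 0.76 in asthma, against 1.23, 1.39 and 1.14 in control. These differences are a description without a test.

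**Figure D4:**
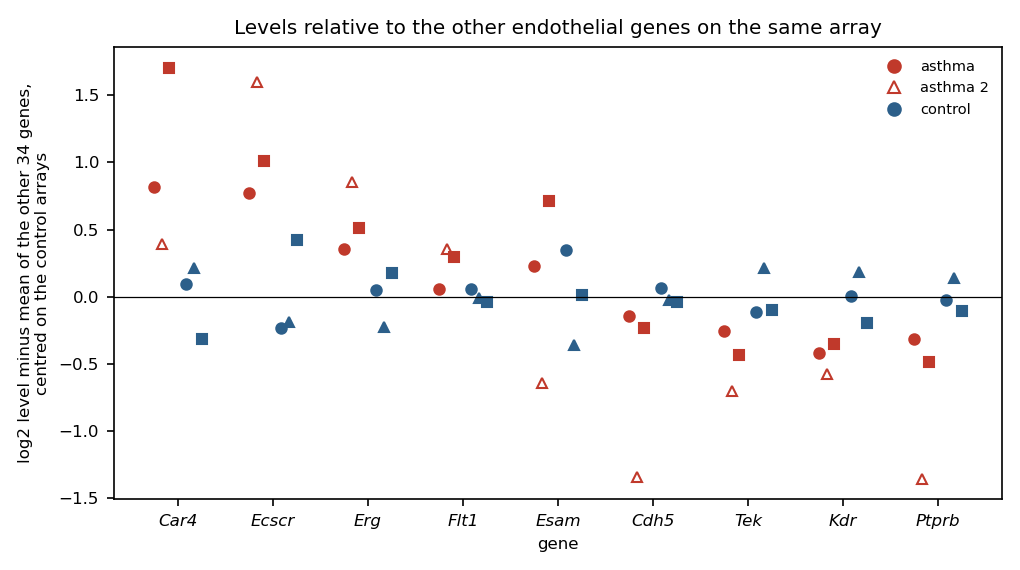
Level of 9 endothelial genes, chosen after their values were seen, minus the mean of the other 34 genes on the same array, in log2 units and centred on the control arrays. Red points are asthma arrays, with asthma 2 as an open triangle, and blue points control arrays; circle, triangle and square are arrays 1, 2 and 3. Car4, Ecscr, Erg and Flt1 lie higher and Cdh5, Tek, Kdr and Ptprb lower on all 3 asthma arrays than on every control array, and Esam overlaps.

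Lists of further endothelial genes were read in the same comparison. At an unadjusted p under 0.05, 4.78% of all genes were lower and 4.53% higher, and these shares apply to each list below. Of 39 measured genes expressed widely in endothelium, 33 had negative log2 fold changes, against 56.3% of all genes, with a median of -0.17. At that p, 0 were higher and 2 were lower, near the share of all genes. These were Klf2, a transcription factor induced by blood flow, and Thbd, the anticoagulant receptor thrombomodulin, with log2 fold changes of -0.51 (standard error 0.14) and -0.60 (standard error 0.18; limma, FDR = 0.48 for both). Klf2 was at 8.73, 8.53 and 8.54 in asthma, against 8.91, 9.21 and 9.32 in control, and here control 3, not control 2, was highest. Control 2 was the highest control for 27 of these 39 genes, against 28.5% of all genes, with a median excess of 0.25 over control 1 and 3.

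Of 12 arterial genes, 3 were lower and 1 higher at an unadjusted p under 0.05. Hey1 and Efnb2, of Notch and ephrin signaling, had log2 fold changes of -0.38 and -0.59, and Edn1, which encodes the constrictor peptide endothelin 1, had -0.66. The chemokine gene Cxcl12 was at 9.58, 9.72 and 9.51 in asthma, against 8.83, 9.18 and 9.28 in control, with a log2 fold change of 0.44 (limma, FDR = 0.502); its 3 asthma arrays lay above every control array. Of 12 genes of venous and inflamed endothelium, Icam1, an adhesion molecule for leukocytes, was lower with -0.41 and Ch25h, a cholesterol hydroxylase, higher with 0.39, and the median was 0.06. Of 11 capillary genes, 1, Apln, was lower with -0.24, and of 9 lymphatic genes 0 passed in either direction. Control 2 was the highest control for 7 arterial, 2 venous and inflamed, 6 capillary and 5 lymphatic genes, against 28.5% of all genes. Its median excess over the mean of control 1 and 3 was 0.30, -0.05, 0.11 and 0.30 in that order.

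Ligands of the receptors were measured in the same RNA, since smooth muscle and its neighbours can supply them. The list of 19 also held Sphk1, Sphk2 and Spns2, which act in the supply of sphingosine 1-phosphate, and the angiopoietin-like gene Angptl1. Their median was -0.21, and they ran from -1.63 for Angptl1, with -0.57 for Angpt4 next, to 0.89. Of the 19, 4 were lower and 1 higher at an unadjusted p under 0.05, against 4.78% and 4.53% of all genes. The higher one was Pgf, placental growth factor, the ligand of Flt1, at 9.77, 8.31 and 10.20 in asthma, against 9.13, 8.81 and 9.35 in control. Asthma 1 and 3 lay above every control array and asthma 2 below, and the log2 fold change was 0.89 (standard error 0.19; limma, unadjusted p = 0.00351, FDR = 0.48), or 0.33 over all 6 arrays. The lower ones were Adm, adrenomedullin, with -0.49; Sphk1, a kinase that makes sphingosine 1-phosphate, with -0.45; Angpt4, a ligand of Tek, with -0.57; and Apln with -0.24. Vegfa and Angpt1 had log2 fold changes of -0.32 and -0.35 and did not pass. Angptl1, an angiopoietin-like gene, was at 8.72 on control 2 and between 4.58 and 5.16 on the other 5 arrays.

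Markers of other cells were read on the same arrays, and their part in the endothelial values was not tested. The mean of 12 smooth muscle markers was 10.46, 9.75 and 10.77 in asthma, against 10.49, 9.43 and 10.07 in control. It was lowest on control 2, where the mean of the 35 endothelial genes, at 8.83 against 8.09 and 8.21 on the other controls, was highest. On asthma 2 the smooth muscle mean was also below asthma 1 and 3, with the endothelial mean at 7.10, against 8.10 and 8.14 on those arrays. Genes of high level tended to lie lower on asthma 2, with a slope of -0.17 per log2 unit of level. That trend was not taken off these means. The mean of 12 markers of pericytes and vascular smooth muscle, which share vessels with endothelium, was 9.13, 8.61 and 9.44 in asthma, against 9.47, 8.83 and 9.14 in control. Cspg4, whose promoter drives DsRed, was at 9.08, 8.90 and 9.54 in asthma, against 9.63, 8.81 and 9.07 in control. Notch3, which the study used to tell vascular from bronchial smooth muscle cells, was at 9.48, 9.31 and 9.77, against 10.33, 9.41 and 9.62.

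Leukocyte markers, 14 in number, had means of 8.43, 6.77 and 8.76 in asthma, against 7.28, 8.30 and 8.25 in control. All 14 had positive log2 fold changes, 1 of them at an unadjusted p under 0.05, against 4.53% of all genes. Asthma 2 was lowest for this list as for the endothelial genes, while control 2 and control 3 were alike. Ptprc, which encodes the CD45 of the gate, was at 8.09, 6.18 and 8.31 in asthma, against 6.84, 8.10 and 7.77 in control. Of 10 epithelial markers, 6 were lower at an unadjusted p under 0.05 and 0 higher, against 4.78% and 4.53% of all genes. Their means were 6.64, 6.45 and 6.49 in asthma, against 6.79, 6.98 and 7.23 in control. Of 10 mesothelial markers, 9 had their highest control value on control 2, with a mean of 8.41 there, against 7.43 and 7.87 on the other controls. Platelet markers, of which 9 were measured, matter for Pecam1, Icam2, Esam and Vwf. Their means were 6.20, 6.50 and 6.28 in asthma, against 6.35, 6.58 and 6.29 in control. Control 2 was the highest control for 6 of the 9, against 28.5% of all genes. Asthma 2 was the lowest array for 3, against 33.5%. Ppbp, 1 of the 9, was at 6.44, 6.34 and 6.70 in asthma, against 7.02, 8.36 and 6.43 in control. Fibroblast means lay between 10.74 and 11.11 in asthma and between 10.82 and 11.07 in control.

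**Figure D5:**
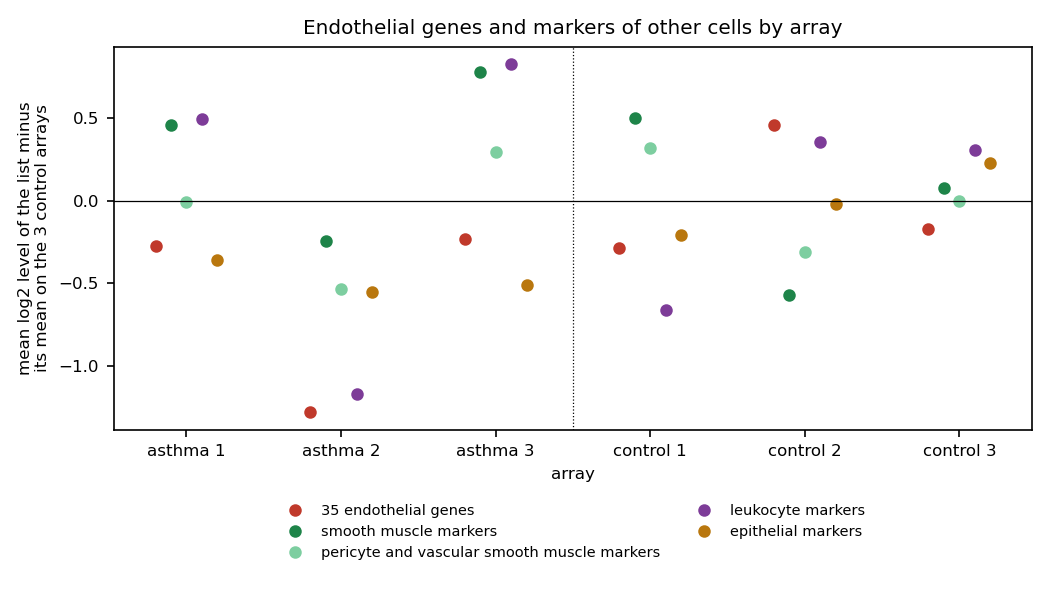
Mean log2 level of the 35 endothelial genes and of markers of smooth muscle, pericytes and vascular smooth muscle, leukocytes and epithelium on each array, minus the mean of the list over the control arrays, asthma left and control right. The endothelial mean is lowest on asthma 2, at 7.10, and highest on control 2, at 8.83, where the smooth muscle mean, at 9.43, is at its lowest.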

How the data were processed

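BSMC RNA of 6 samples was amplified, labelled and hybridized to 1 Affymetrix whole-transcript mouse array each. The deposited values are log2 levels, 1 per probe set, which the authors made by background correction, normalization and summarization of all arrays together. The submitters' notes name RMA and affy, the methods name oligo, and the sources used here give neither versions nor a genome build. Levels were used as deposited, without a filter. Of 21225 probe sets, 20239 had 1 gene symbol in the platform annotation and were tested, and 986 had none. Arrays have no read depth, and their number limits the precision.

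Asthma minus control was tested two-sided in R 4.3.3 by linear models with empirical Bayes moderation (limma 3.58.1; statmod 1.5.0 for the robust alternative). FDR is by Benjamini-Hochberg over every gene tested. The main set was asthma 1 and 3 against the 3 control arrays, and every p of a single gene is from limma. The code was tested on simulated data. The 35 genes, the other lists and the tests were chosen with earlier results of these data known. The text names all 35 genes, up to 4 genes of each other list with the smallest p, and ligands of the receptors. Acta2, Ptprc, Cspg4 and Notch3 are named as checks of the sort. Marco, Vegfa, Angpt1, Angpt4 and Angptl1 were named after their values were seen. Alternatives were the 6-array fit, array weights, the replicate number as a block, omission of each array, a filter at the 25th percentile of median level, quantile normalization, median centring, and an intensity trend with robust variance. Quantile normalization of all 6 arrays, all 6 without control 2, and the gene by gene method for array weights were chosen after seeing the data. Promoter sequences are from RefSeq.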

Additional observations from a re-analysis of the deposited data

How the results depend on the processing

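With 2 or 3 arrays a group, small differences could not be told from the spread, and asthma 2 and control 2 set most of the values. The median log2 fold change of the 35 genes stayed negative in every alternative run, from -0.65 to -0.10. No gene passed an FDR of 0.25 except Aqp1 with array weights (count 1, against 2.78% of all genes), where its FDR was 0.165; over its 16 settings it ran from 0.165 to 0.999. That fit gave asthma 2 a weight of 0.0852, against 1.05 to 3.30 for the others, so it nearly leaves that array out.

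The count of genes lower at an unadjusted p under 0.05, 1 in the comparison given first, was 6 with all 6 arrays and also after their quantile normalization (3.55% of all genes), and 5 with array weights (6.49%). Leaving out 1 control array at a time it ran from 2 to 10. The 10, without control 1, compare with 4.48% of all genes. The count was 4 without control 2, against 4.25%, and 2 without control 3, against 4.94%. Of the 6 genes over all arrays, 1 was left without control 2 and 1 without asthma 2. The count at an unadjusted p under 0.01 was 0 without control 1, against 1.73% of all genes, 2 without control 2, against 1.5%, and 1 without control 3, against 2.84%. It was 0 with all 6 arrays without control 2, a fit for which the share of all genes was not counted at this p.

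Equal numbers in the groups were taken only as names of samples. Deviations from the group mean correlated at -0.0807 for asthma 1 and control 1 and at 0.00173 for asthma 3 and control 3. With 2 asthma arrays these deviations mirror each other, so the values cannot decide whether arrays were paired. With all 3 asthma arrays they were -0.107, -0.0363 and 0.0148 for numbers 1, 2 and 3. With the replicate block 2 genes were at an unadjusted p under 0.01 (Ecscr and Car4), against 2.44% of all genes, and 2 were lower at one under 0.05, against 3.45%. The block over all 6 arrays gave counts of 0, against 0.919%, and 4, against 2.41%. Control 2 has no partner in the block of 5 arrays, whose log2 fold changes are those without control 2.

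Signs turned for 9 genes. With the replicate block the log2 fold changes were 0.0787 for Mmrn2, 0.139 for Flt1, 0.0760 for Calcrl, 0.103 for Plvap, 0.0454 for Vwf and 0.0983 for Lyve1. Leaving out 1 array at a time, they ran from -0.401 to 0.0787 for Mmrn2, from -0.220 to 0.139 for Flt1, from -0.373 to 0.0760 for Calcrl, from -0.274 to 0.103 for Plvap, from -0.669 to 0.0454 for Vwf and from -0.369 to 0.0983 for Lyve1, each positive without control 2, and Flt1 also, at 0.0550, without asthma 1. Esam ran from -0.0570, without asthma 3, to 0.459. Over all 6 arrays, with or without the block, the log2 fold change was -0.500 for Esam and -0.0405 for Erg. Esam was at -0.451 after quantile normalization of all 6 arrays, and at -0.447 with all 6 without control 2, where Flt4 was at 0.0084. Median centring, quantile normalization of the 5 arrays, array weights and the robust trend turned no sign, and neither did the filter on low levels, which removed Prox1. The cause was not tested.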
